A study of Mus musculus with 6 samples.

Results

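The claudin loci were the peaks of any annotation class that the authors' deposited table assigns to Cldn1, Cldn2, Cldn3, Cldn4, Cldn6, Cldn7, Cldn8, Cldn9, Cldn18 or Cldn23. This gave 50 of the 214414 peaks in the table, assigned to 9 of the 10 genes, since none carried the symbol Cldn6. The peaks come from ATAC-seq, which reads where a transposase can reach the DNA, done on mouse non-small cell lung cancer (NSCLC) organoids. Organoids are cells grown as small 3-dimensional cultures. There were 3 libraries from organoids resistant to immunotherapy and 3 from sensitive organoids. The labels give NSCLC as the cell type of both and no genotype, strain, age, clone or number of animals. Separate cultures are not stated, so p-values reflect the spread among these libraries alone, and that spread may be technical. The authors' deposited table gives each peak's mean normalized count over all libraries, the log2 fold change of resistant over sensitive organoids with its standard error (SE), and an adjusted p. The direction rests on the title of the table. The table's columns of single libraries could not be tied to the sample labels, so values per library are not given. Positions are on mm10 as the table has them.

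Claudins are membrane proteins that span the membrane several times and join neighbouring epithelial cells at the tight junction. Their extracellular loops meet those of the next cell, and the set of claudins a cell makes decides how easily ions and water pass between cells. Some mainly seal the space, while claudin-2 forms a channel for cations and water. In lung epithelium several are made together, and the loss of claudins is a known feature of epithelial cells that take on a mesenchymal state.

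The promoter sequences of 7 of the 10 genes were found in RefSeq's table for GRCm38.p6, the assembly that mm10 also represents. Those of 5 genes are shown because their windows lay in a promoter peak assigned to the gene. The peaks of Cldn3, Cldn4, Cldn7 and Cldn2 were lower in resistant organoids, and that of Cldn1 has no adjusted p. Each line is the 250 bases before the transcription start, 5′ to 3′ on the gene's strand. Capitals mark any match to 6 motifs searched on both strands. The E-box that SNAI and ZEB factors bind was read as CAGGTG. The grainyhead motif was read as AACCNGGTT. The motif of SP and KLF factors was read as GGGCGG, and the TATA box was searched with the letters TATAAA. The forkhead motif was searched with the letters TGTTTAC. The AP-1 motif was searched as TGACTCA, with any base allowed at its centre. None of the marked matches overlap each other.
Cldn3: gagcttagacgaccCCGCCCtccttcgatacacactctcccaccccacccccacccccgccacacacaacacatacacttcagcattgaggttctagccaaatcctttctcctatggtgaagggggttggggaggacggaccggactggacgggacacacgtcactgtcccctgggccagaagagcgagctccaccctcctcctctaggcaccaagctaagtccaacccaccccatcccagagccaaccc
Cldn4: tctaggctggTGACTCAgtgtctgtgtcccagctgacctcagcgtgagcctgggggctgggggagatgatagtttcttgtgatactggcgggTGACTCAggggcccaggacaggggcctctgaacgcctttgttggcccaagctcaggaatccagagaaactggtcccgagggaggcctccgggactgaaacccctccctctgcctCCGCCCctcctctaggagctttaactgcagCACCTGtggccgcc
Cldn7: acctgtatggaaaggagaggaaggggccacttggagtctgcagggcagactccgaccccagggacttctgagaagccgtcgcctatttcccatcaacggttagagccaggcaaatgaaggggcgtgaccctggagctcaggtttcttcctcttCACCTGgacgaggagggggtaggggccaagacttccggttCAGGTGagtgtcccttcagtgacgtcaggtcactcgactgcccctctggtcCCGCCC
Cldn2: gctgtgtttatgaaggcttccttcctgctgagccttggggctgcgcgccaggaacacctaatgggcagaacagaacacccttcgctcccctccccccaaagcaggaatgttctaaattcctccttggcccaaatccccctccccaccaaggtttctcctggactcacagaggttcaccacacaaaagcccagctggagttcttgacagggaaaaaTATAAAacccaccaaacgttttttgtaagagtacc
Cldn1: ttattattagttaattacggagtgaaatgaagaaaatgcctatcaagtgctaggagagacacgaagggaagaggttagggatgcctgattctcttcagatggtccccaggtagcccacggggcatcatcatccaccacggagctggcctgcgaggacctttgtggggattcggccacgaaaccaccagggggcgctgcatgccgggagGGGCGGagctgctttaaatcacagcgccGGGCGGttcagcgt

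The windows lie at chr5:134985964-134986213 on the plus strand (Cldn3), chr5:134946935-134947184 on the minus strand (Cldn4), chr11:69965171-69965420 on the plus strand (the downstream of the annotated Cldn7 starts), chrX:139800558-139800807 on the plus strand (Cldn2) and chr16:26371840-26372089 on the minus strand (Cldn1). CAGGTG or its complement began 14 bases before the start of Cldn4, and 57 and 97 bases before the Cldn7 start shown. The window of the other Cldn7 start, chr11:69964529-69964778 in the same peak, held none of the 6 motifs and is not shown. CAGGTG or its complement is in 17.2% of 32851 promoter windows of the same length. TGACTCA began 158 and 240 bases before the start of Cldn4, and the AP-1 motif so searched is in 6.75% of the windows. The Cldn2 window held TATAAA, 35 bases before the start, which 12.4% of the windows hold. GGGCGG or its complement was in the windows of Cldn1, Cldn3, Cldn4 and Cldn7, and is in 32.7% of all. Neither AACCNGGTT (in 0.24% of all) nor TGTTTAC (in 3.17%) was found in these 5 windows. A match is a description of the letters and not of a bound site.

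Of the tested peaks of these 10 genes most were lower in resistant organoids, and none was higher. Of the 50 peaks, 26 have an adjusted p in the authors' deposited table, and 15 of these (57.7%) were lower and 0 higher at an adjusted p under 0.05. Among all 102173 peaks with an adjusted p, 7.34% were lower and 5.02% higher. The 10 genes were chosen with earlier results of these data known, and the count describes them and not the claudin family. Among the peaks of 20 other genes of the family, 5 of 93 tested were lower and 4 higher. The 15 peaks belong to 7 genes, with 5 at Cldn3, 3 at Cldn4, 2 each at Cldn2 and Cldn23, and 1 each at Cldn7, Cldn8 and Cldn9. In 13 of the 15 the level was at least 2-fold lower. The median log2 fold change of the 26 peaks in the authors' deposited table was -0.98, against -0.07 over all tested peaks. Peaks of 1 locus share their surroundings and are not independent, and 8 of the 15 come from the neighbouring Cldn3 and Cldn4. Without those genes 7 of 18 tested peaks (38.9%) were lower. The adjusted p comes from the authors' DESeq2 Wald test.

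The other 24 peaks lie below the mean count that the test kept (lowest tested in the series 14.7) and have no adjusted p. Their mean counts ran from 4.63 to 14.3, and their standard errors had a median of 0.60 in the authors' deposited table, against 0.28 in the tested 26, so a change there is harder to detect. At an unadjusted p under 0.05 there were 5 of them, all with negative fold changes, at Cldn2, Cldn8 and Cldn1. The share of all peaks without an adjusted p that fall under that threshold was not computed, so this count has no background. When p was adjusted over every peak with a p-value, 15 of the 50 peaks were again lower, where 2.86% of all were. Of these 15, 1, at Cldn8, was among the 24.

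The lower peaks varied in width and strength. Their width ran from 1801 bp to 13.7 kb with a median of 3.87 kb, and their mean count from 20.3 to 360.4 with a median of 49.2. Strong peaks pass the test more easily. The 11 tested peaks that did not pass had a median width of 2.09 kb and a median mean count of 37.8. All 15 lower peaks lay within 14234 bp of an annotated start, while tested peaks that did not pass lay up to 119171 bp away. By class, 7 of 10 tested promoter peaks and 8 of 12 tested intergenic peaks were lower, and 0 of 4 tested peaks in introns or exons. Over all tested peaks of any class 7.34% were lower. Shares by class were not computed over all peaks, so these counts do not compare the classes.

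**Figure D1:**
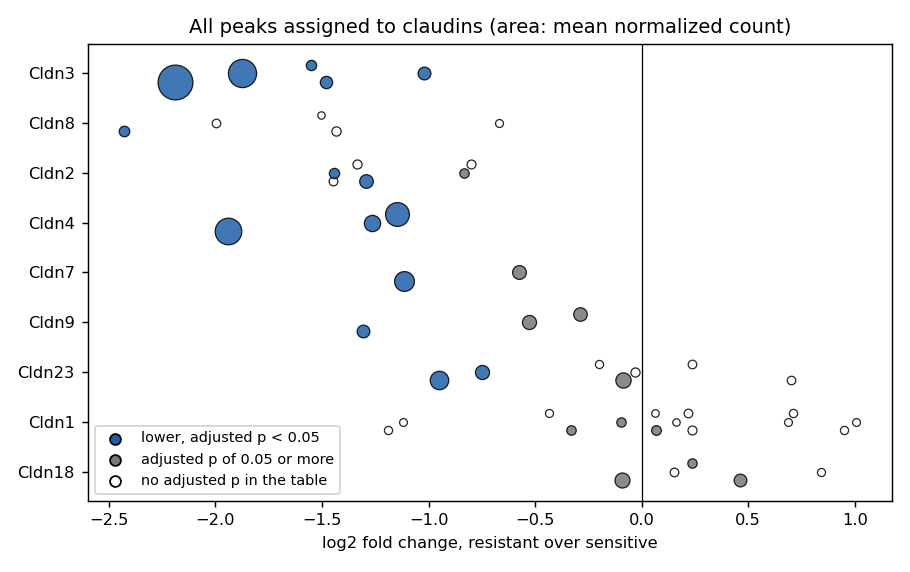
Log2 fold change of resistant over sensitive organoids (x axis) for all 50 claudin peaks, by gene (y axis). The area of a point grows with the mean normalized count, blue points are lower at an adjusted p under 0.05, grey points did not pass and open points have no adjusted p. Every peak of Cldn2, Cldn3, Cldn4, Cldn7, Cldn8 and Cldn9 lies below 0, and peaks of Cldn1, Cldn18 and Cldn23 lie on both sides.

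Each gene was then represented by its promoter peak (within 3 kb of a start, by the table's annotation) with the highest mean count. Of the 8 claudins with a promoter peak, 7 were tested, of which 6 were lower in resistant organoids and 0 higher by the adjusted p in the authors' deposited table. Over the 15490 genes with such a tested peak, 13.9% were lower and 3.58% higher. For peaks of any class with mean counts from 50 upward, p was also adjusted over those peaks alone. There 4 claudin promoters were lower, where 26.1% of those peaks were. The median log2 fold change was -1.30 for the 7 claudins and -0.18 for all genes. From lowest to highest the order was Cldn8, Cldn3, Cldn4, Cldn2, Cldn7, Cldn23, Cldn1 and Cldn18. The 95% intervals of neighbours in that order all overlapped. Those of the 6 lower promoters ended below 0, at -0.55 for Cldn23 and further down for the others, while that of Cldn18 ran from -0.15 to 1.08.

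**Figure D2:**
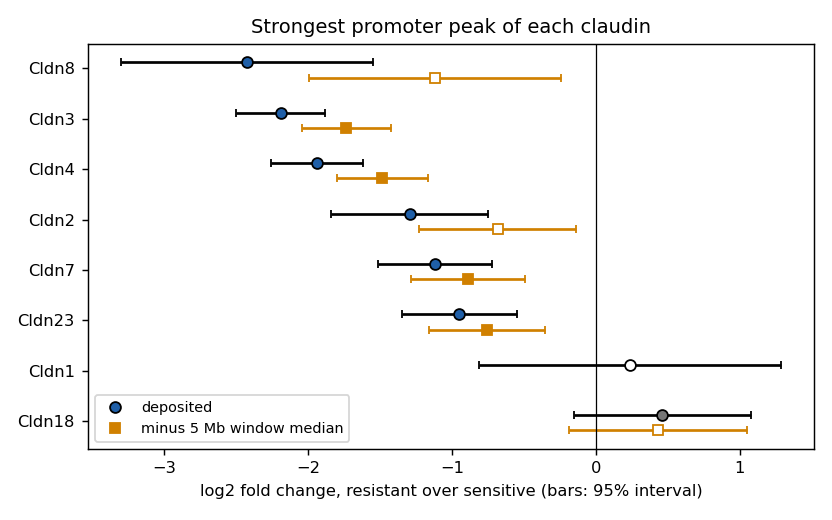
Log2 fold change of resistant over sensitive organoids (x axis) at the strongest promoter peak of each claudin (y axis), with 95% intervals. Circles are the deposited values, filled blue where lower at an adjusted p under 0.05, grey where not and open where there is no adjusted p, and squares are the values after the median of the 5 Mb window was subtracted, filled where lower at an adjusted p under 0.05. After the subtraction Cldn3, Cldn4, Cldn7 and Cldn23 were still lower, and Cldn8 and Cldn2 were not.

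Some stretches of chromosomes were shifted as a whole, with window medians from -1.31 around Cldn8 to 0.03 around Cldn18, so each value was also set against its surroundings. The median log2 fold change of the tested peaks in the same 5 Mb window was subtracted and p adjusted again over all tested peaks. Then 8 of the 15 lower peaks stayed lower, 3 each at Cldn3 and Cldn4 and 1 each at Cldn7 and Cldn23, where 3.95% of all tested peaks were lower. Of the 7 promoters, 4 were lower, against 6.64% of all genes. When the 20 nearest peaks of other genes gave the median instead, 6 of the 15 stayed lower, where 3.82% of all tested peaks were lower. With a trend of fold change over mean count and the window median both removed, 5 did, where 2.89% of all were lower. Lower under all 3 of these settings were 4 peaks, the promoter peaks of Cldn3, Cldn4 and Cldn7 and an intergenic peak upstream of Cldn3.

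Levels in each group were approximated from the deposited mean count and fold change, with the groups given equal weight, and divided by peak width so that genes can be compared. They carry no error of their own. For the 6 lower promoters these levels lay between 3.29 and 16.4 normalized counts per kb in resistant organoids and between 12.1 and 43.2 in sensitive organoids. The Cldn1 promoter, a narrow peak of few counts, was at 18.9 per kb in resistant and 16.0 in sensitive organoids. Cldn3 and Cldn4 were at 9.47 and 10.7 per kb in resistant organoids, against 43.2 and 40.9 in sensitive organoids.

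**Figure D3:**
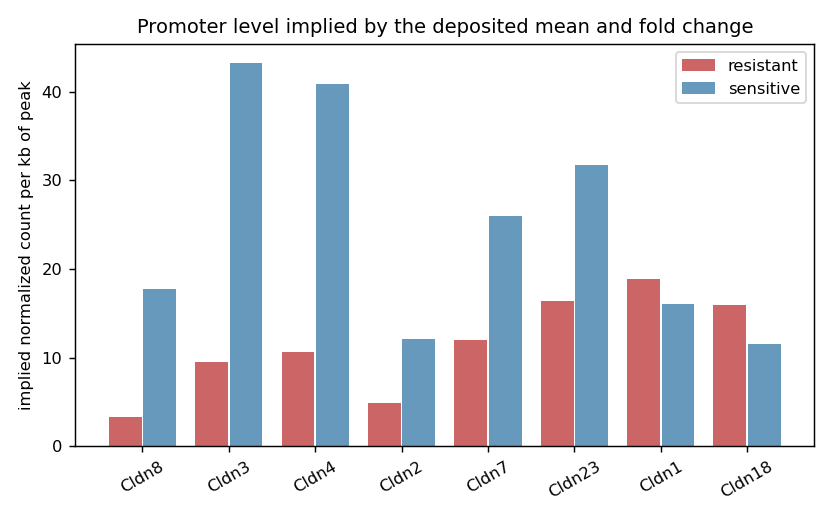
Approximate normalized count per kb of peak (y axis) at the strongest promoter peak of each claudin (x axis) in resistant (red, left) and sensitive (blue, right) organoids, computed from the deposited mean and fold change, with no error bars since the library values were not used. The bars for sensitive organoids are the higher ones in the 6 genes from Cldn8 to Cldn23.

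Cldn3 and Cldn4 encode closely related sealing claudins that also serve as receptors for a toxin of Clostridium perfringens, and they are neighbours on chromosome 5 with starts 39.3 kb apart. The Cldn3 promoter peak (chromosome 5, 134980500 to 134994180) covers the whole gene. It had a mean count of 360.4 and a log2 fold change of -2.19 ± 0.16 (SE) by the authors' deposited table, with an adjusted p of 2.1e-39 by DESeq2. This is 4.56-fold lower, or about 129.6 normalized counts in resistant and 591.3 in sensitive organoids. The Cldn4 promoter peak (134945300 to 134953260) covers 90.2% of its gene. It was at -1.94 ± 0.16 (SE) by the authors' deposited table (DESeq2 adjusted p = 3.96e-29), or about 84.9 normalized counts in resistant and 325.7 in sensitive organoids.

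By the deposited values accessibility at this locus was lower between the promoters as well. The 8 peaks of Cldn3 and Cldn4 follow each other over 54.2 kb (134939980 to 134994180), with gaps of 20 to 690 bp, and cover 94.7% of it. All 8 were lower and each by at least 2-fold. In the authors' deposited table the intergenic peak that ends 14234 bp upstream of Cldn3 was at -1.87 ± 0.17 (SE), with a mean count of 231.4. The peak between the genes that is assigned to Cldn4 was at -1.15 ± 0.17 (SE) in that table, and the one past the end of Cldn4, in the table's promoter class, at -1.27 ± 0.24 (SE). The 3 weaker peaks from 5734 to 10724 bp upstream of Cldn3 were at -1.02 to -1.55 there. The 95% interval of the peak between the genes (-1.49 to -0.81) did not overlap those of the promoters (-2.50 to -1.88 for Cldn3 and -2.26 to -1.62 for Cldn4), though the difference itself was not tested. Summed over the 8 peaks, the approximate level was 509.5 normalized counts in resistant and 1735 in sensitive organoids, 3.41-fold lower. Per kb it ranged from 5.21 to 11.6 in resistant and from 15.3 to 43.2 in sensitive organoids.

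Peaks of other genes around the locus mostly had negative values too. Within 80 kb on both sides this held for 33 of 36 peaks, tested or not, where the median over all peaks of the series was 0.02. Of the 23 tested 7 were lower and 0 higher, against 7.34% and 5.02% of all tested peaks. The median of the 23 was -0.57, against -0.07 over all tested peaks. Their approximate level had a median of 10.8 per kb in resistant and 16.7 in sensitive organoids. The promoter of the next gene, Wbscr25, was at -1.95 ± 0.20 (SE) by the authors' deposited table, followed by Abhd11 at -1.21 ± 0.18 (SE). On the other side the promoter of Mettl27 was at -1.16 ± 0.20 (SE) there. Cldn13, a claudin gene beyond Mettl27, was at -0.31 ± 0.33 (SE) and did not pass. Farther out on that side, the promoter of Tmem270 was at -1.31 ± 0.31 (SE) and was lower. Past Abhd11 on the other side, a peak each of Abhd11os, Stx1a and Bud23 was lower too. The 5 Mb window had a median of -0.45. With it subtracted, the promoters of Cldn3 and Cldn4 were at -1.74 and -1.48, and with the 20 nearest peaks of other genes subtracted at -1.50 and -1.05, all still lower at an adjusted p under 0.05. Of the 8 peaks 6 were still lower with the window median subtracted and 3 with the nearest peaks subtracted, those being the promoters and the intergenic peak 14234 bp upstream of Cldn3. The nearest peaks of either gene include those of the other. The peak between the genes assigned to Cldn4 was then at -0.09, and the one past the end of Cldn4 at -0.38.

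**Figure D4:**
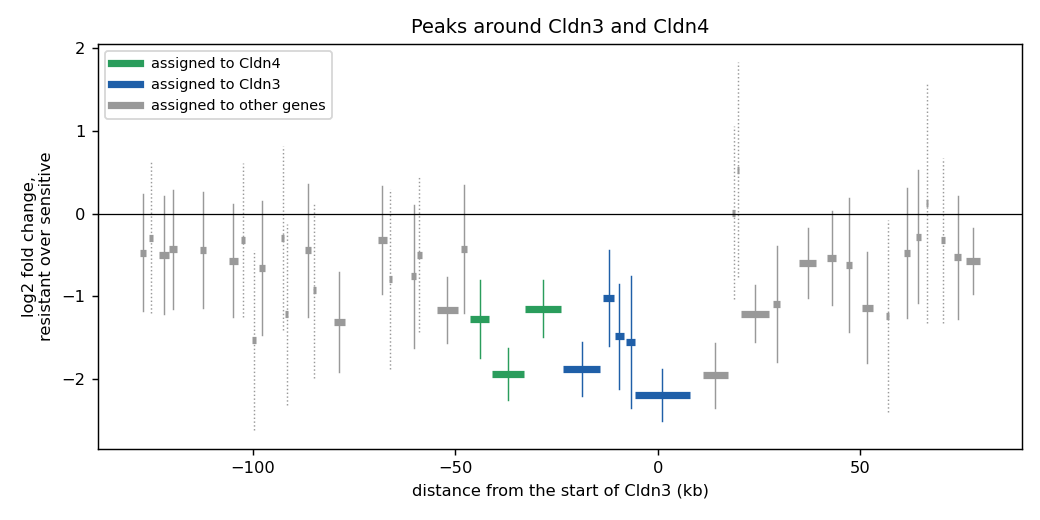
Log2 fold change of resistant over sensitive organoids (y axis) for each peak by its distance from the start of Cldn3 in kb (x axis). Thick bars span the peak, thin lines are 95% intervals (dotted where there is no adjusted p), green marks peaks assigned to Cldn4, blue those assigned to Cldn3 and grey those of other genes. The 8 claudin peaks and the Wbscr25 promoter to their right lie between -1.02 and -2.19.

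Cldn7, whose protein binds the adhesion molecule EpCAM in epithelial cells, had a promoter peak (chromosome 11, 69963710 to 69969440) that covers the whole gene and both annotated starts. It was at -1.12 ± 0.20 (SE) by the authors' deposited table (DESeq2 adjusted p = 2.25e-06), or about 68.7 normalized counts in resistant and 148.9 in sensitive organoids. Of the 4 lower promoters outside the Cldn3 and Cldn4 locus, it alone passed under all 3 regional settings, with values from -0.73 to -0.89. A second peak just upstream was at -0.57 ± 0.26 (SE) by the authors' deposited table and did not pass. Epcam itself had a promoter at -1.54 ± 0.22 (SE) there.

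Cldn8, a sealing claudin that partners with claudin-4 in the kidney, had the lowest fold change of the 8 promoters but little signal. Its promoter peak (chromosome 16, 88562170 to 88564310) had a mean count of 22.5 and was at -2.43 ± 0.45 (SE) by the authors' deposited table (DESeq2 adjusted p = 3.64e-06). That is about 7.04 normalized counts in resistant and 37.9 in sensitive organoids. All 5 of its peaks had negative values, and the 4 outside the promoter have no adjusted p. The region is lower as a whole, since the median of its 5 Mb window was -1.31 over 44 tested peaks. With that subtracted the promoter was at -1.12, no longer past the threshold (adjusted p = 0.142 by a normal test on the deposited error).

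Cldn2 encodes the channel-forming claudin. Its promoter peak on the X chromosome (139796180 to 139801480) was at -1.30 ± 0.28 (SE) by the authors' deposited table (DESeq2 adjusted p = 0.000119), or about 26.1 normalized counts in resistant and 64.1 in sensitive organoids. An intergenic peak 5918 bp upstream was at -1.44 ± 0.41 (SE) there and was lower too, though not with any regional median subtracted. All 6 Cldn2 peaks had negative values, from -0.80 to -1.45. Its 5 Mb window holds only 20 tested peaks, 3 of them its own, and has a median of -0.61. The promoter was at -0.68 with that subtracted (adjusted p = 0.156 by the normal test) and at -0.93 with the 20 nearest peaks of other genes subtracted (adjusted p = 0.0202).

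Cldn23 is a single-exon claudin gene of epithelia. Its promoter peak (chromosome 8, 35824420 to 35828290) covers the gene and was at -0.95 ± 0.20 (SE) by the authors' deposited table (DESeq2 adjusted p = 0.000121), with about 63.6 normalized counts in resistant and 122.8 in sensitive organoids. A peak 7971 bp upstream was at -0.75 ± 0.26 (SE) there and passed (DESeq2 adjusted p = 0.0385), but at -0.56 did not with its window's median subtracted (adjusted p = 0.281). The next, 21061 bp upstream and with a higher mean count of 59.9, was at -0.09 ± 0.24 (SE) in that table and did not pass. The promoter was at -0.76 and still lower with its window's median subtracted, and at -0.55 (adjusted p = 0.105) once the trend with mean count was removed as well.

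Cldn1 and Cldn18 had no lower peak. Cldn1, a sealing claudin needed for the barrier of the skin, has the most peaks of the set, 14, but none has a mean count above 16.9. The promoter peak (chromosome 16, 26371590 to 26372310) is 721 bp wide with a mean count of 12.6, and was at 0.24 ± 0.54 (SE) by the authors' deposited table with no adjusted p. Its 3 tested peaks lay between -0.33 and 0.07 there and did not pass, and of the 14 peaks 9 had positive and 5 negative values. The 95% interval of the promoter, -0.82 to 1.29, takes in no change and a 2-fold higher level but not a 2-fold lower one.

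Cldn18 has alternative starts that in lung and stomach give different proteins. Neither start, nor the 250 bases before it, lay in a peak assigned to the gene. The nearest, of the promoter class because it begins 1963 bp upstream of the outer start (chromosome 9, 99719230 to 99721980), was at 0.46 ± 0.31 (SE) by the authors' deposited table and did not pass (DESeq2 adjusted p = 0.399). An intronic peak that lies 6589 bp inside an inner start, by the table's distance, with a mean count of 57.2, was at -0.09 ± 0.26 (SE) there. Its 95% interval, -0.59 to 0.41, does not reach a 2-fold change in either direction.

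Cldn6, a claudin of embryonic epithelia, and Cldn9, needed for hearing, lie side by side on chromosome 17. Both gene bodies lie wholly within 1 peak of 16491 bp that the table assigns to the next gene, Thoc6 (23668170 to 23684660). The rule therefore missed the peak over both genes. It was at -0.55 ± 0.12 (SE) by the authors' deposited table, with a mean count of 480.4 (DESeq2 adjusted p = 0.000276), and its value cannot be divided between the 3 genes. With its window's median subtracted it was at -0.08 and did not pass. The 3 peaks assigned to Cldn9 lie 9564 to 15674 bp upstream of it. The nearest of these was at -1.31 ± 0.31 (SE) by the authors' deposited table and was lower. The others were at -0.53 and -0.29 there and did not pass. With its window's median of -0.48 subtracted, the nearest was at -0.83 (adjusted p = 0.0901 by the normal test).

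Among other claudin genes few promoters passed. Of 20 further genes of the claudin family and claudin-domain genes, 12 had a tested promoter, of which 1 was lower and 1 higher. Their median in the authors' deposited table was -0.14. These shares are near the background of 13.9% and 3.58%. The lower one was Cldnd2 at -0.61 ± 0.19 (SE) and the higher one Cldn34c1 at 1.53 ± 0.38 (SE), both from the authors' deposited table. Cldn34c1 has related copies on the X chromosome, so its value is uncertain where reads are shared. With window medians subtracted Cldnd2 was at -0.40 and did not pass, and Cldnd1 was lower at -0.75, against -0.15 before. Cldn5, the claudin of blood vessels, was at 0.42 ± 0.27 (SE) at its promoter in that table and did not pass.

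More of the other tight junction genes were lower. Of 25 genes listed, 23 had a tested promoter, of which 12 were lower and 0 higher, where 13.9% of all genes were lower. Their median in the authors' deposited table was -0.65. The promoters listed had a median mean count of 83.4, and of all tested peaks from 50 upward 26.1% were lower. Among the membrane proteins, Ocln (occludin) was at -1.63 ± 0.22 (SE) and Cxadr, an adhesion receptor of the junction, at -1.73 ± 0.23 (SE) by the authors' deposited table. Lsr, a receptor at junctions where cells meet at corners, was at -1.32 ± 0.20 (SE) there. Among the scaffolds under the membrane, Cgn (cingulin) was at -1.05 ± 0.15 (SE) there. Tjp1 (ZO-1) was at -0.41 ± 0.19 (SE) in that table and did not pass. With the window medians subtracted 10 were lower, against 6.64% of all genes. Cxadr, on chromosome 16, was then at -0.35, and it, Igsf5 and Patj did not pass. Ildr1, on the same chromosome, was at -0.60 ± 0.29 (SE) in that table and did not pass. With its window's median of 1.42 subtracted it was at -2.02 and lower. Jam2 lies in a window of only 11 tested peaks, so the median of chromosome 16, 0.75, was subtracted, which put it at -1.81 and lower. With the 20 nearest peaks of other genes subtracted instead, Jam2 was at 0.40 and did not pass. Pard6b and Tjp3, among the 10, did not pass once the trend with mean count was removed along with the window median.

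**Figure D5:**
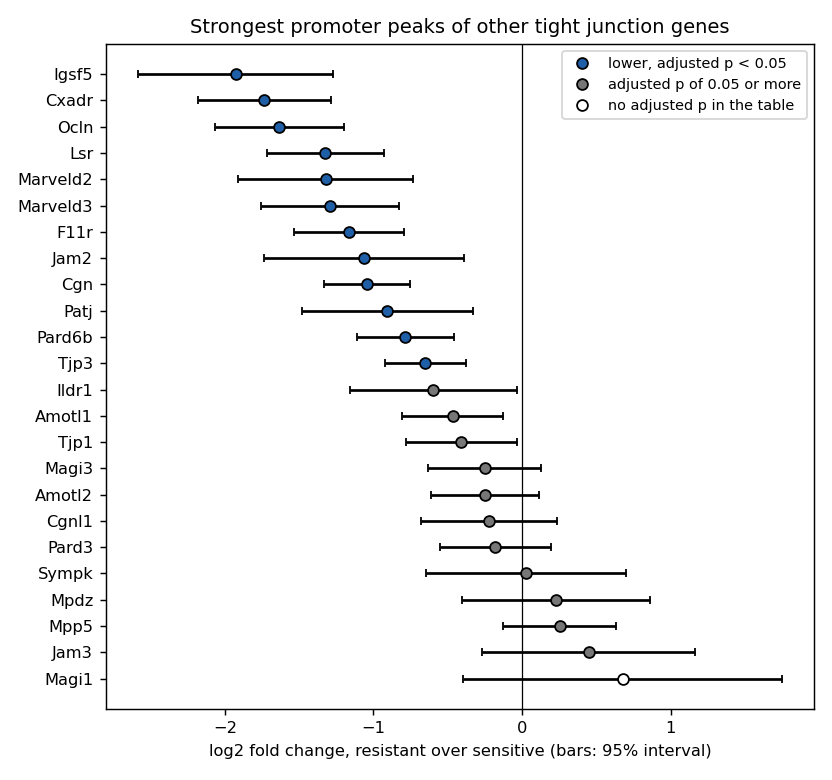
Log2 fold change of resistant over sensitive organoids (x axis) with its 95% interval at the strongest promoter peak of 24 other tight junction genes (y axis). Blue points are lower at an adjusted p under 0.05, grey points did not pass and the open point has no adjusted p. The 12 lower genes run from Igsf5 at -1.93 to Tjp3 at -0.65.

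Factors known to control epithelial genes went both ways. Of 25, all tested, 14 promoters were lower and 5 higher, against the same 13.9% and 3.58%, and 10 and 3 with window medians subtracted, against 6.64% and 1.71%. The median mean count of the 25 was 88.9, and of all tested peaks from 50 upward 26.1% were lower. The epithelial splicing factor genes Esrp1 and Esrp2 were at -2.06 ± 0.21 (SE) and -1.33 ± 0.17 (SE) by the authors' deposited table, Elf3 at -1.03 ± 0.14 (SE) and Foxa2 at -1.24 ± 0.17 (SE). The repressors of epithelial genes Snai2 and Twist1 were at 1.47 ± 0.21 (SE) and 2.03 ± 0.34 (SE) by the authors' deposited table, and Twist2 at 1.63 ± 0.31 (SE). Zeb1 was higher at 1.27 ± 0.40 (SE) there, though at 0.85 and not past the threshold with its window's median subtracted. Not all repressors on the list were higher. Zeb2 was lower at -0.78 ± 0.28 (SE) in that table, though not with its window's median subtracted, and Snai1 was at 0.34 ± 0.23 (SE) and did not pass. Foxa1, a forkhead factor of endoderm, was at 0.54 ± 0.14 (SE) there, and at 0.07 and not past the threshold with its window's median subtracted.

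Markers of the labelled and of other cell types were read at the same promoters, where 13.9% of all genes were lower and 3.58% higher. All 5 epithelial markers (Epcam, Cdh1, Krt8, Krt18 and Krt19) had strong promoter peaks and all were lower in resistant organoids. The mean counts of the 5 were all above 50. Of all tested peaks of any class from 50 upward, with p adjusted over those alone, 26.1% were lower. The summed approximate level of the 5 was 1532 normalized counts in resistant and 3492 in sensitive organoids. Of the lung markers, Nkx2-1, Sftpb and Foxa2 were lower (Nkx2-1 and Foxa2 are also among the factors above), Scgb1a1 did not pass, and no promoter-class peak carries the symbol Sftpc. The 5 fibroblast markers summed to 251.9 in resistant and 199.1 in sensitive organoids, with Pdgfrb and Col1a2 higher (Col1a2 not with its window's median subtracted) and Pdgfra, Col1a1 and Dcn not past the threshold. The leukocyte markers Cd3e and Itgam, with no promoter-class peak for Ptprc and Csf1r, summed to 17.2 in resistant and 21.3 in sensitive organoids, and neither has an adjusted p. The 4 endothelial markers summed to 74.2 in resistant and 86.3 in sensitive organoids. None of the 3 tested passed, and Tie1 has no adjusted p. In these bulk samples fewer epithelial cells and less open chromatin per cell cannot be told apart, and the part of the cell mixture in the claudin values was not tested.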

How the data were processed

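Libraries of ATAC-seq, 3 from resistant and 3 from sensitive organoids, were grouped by the labels. Per the submitters' processing notes, Bowtie2 2.2.1, SAMtools 1.8, GATK 4.1.3, deepTools, featureCounts, ChIPseeker 1.22.1, R 3.6.1 and DESeq2 1.26.0 were used with build mm10. For the peak caller, the handling of duplicates and a Tn5 offset, nothing is given in the sources used here.

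The authors deposited 1 table with the mean normalized count per peak (a normalized signal), a log2 fold change with SE, a Wald statistic (a score) and p-values, with peak width and distance to the start in bp. Its adjusted p was recomputed as Benjamini-Hochberg over 102173 tested peaks and was equal within rounding. The table's 6 columns of single libraries match no sample label and were not used, so the depth per library is not known here, and the precision is that of the SE. Starts are in nearly all cases multiples of 10 and may count from 0.

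From these values 95% normal intervals, approximate group levels, and fold changes less the median of a 5 Mb window (of the chromosome under 20 tested peaks), of the 20 nearest peaks of other genes, or of a running median over 2001 peaks by mean count were computed. The deposited SE was kept and a two-sided normal test was adjusted over all tested peaks. The window median, the nearest peaks and the trend were each run on simulated data with a constant shift per chromosome. That simulation held no shifts of parts of a chromosome and no trend with mean count. The combined setting was not run on it. Python 3.11.15, pandas 2.3.3, NumPy 2.4.6 and SciPy 1.17.1 were used. Gene names and promoters are RefSeq's, and all 10 genes were found there. Pals1 was read as Mpp5, Cldn26 as Tmem114 and Cldn25 as Cldnd1 by the synonyms in RefSeq. Cldnd1 was already listed and was counted once.

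All members were named, with every peak called. Of each further list up to 4 genes per direction with the smallest p could be named. Neighbours or genes named outside this rule (Mettl27, Abhd11, Wbscr25, Cldn5, Cldn13, Cldnd1, Tjp1, Igsf5, Patj, Ildr1, Jam2, Tjp3, Zeb2, Snai1) were chosen after their values were seen. The same holds for Tmem270, Abhd11os, Stx1a, Bud23, Pard6b and Zeb1. The members and lists were chosen with earlier results of these data known. Of the lists, 2 genes are not reported here and enter no count or figure.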

Additional observations from a re-analysis of the deposited data

How the results depend on the processing

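The count of 15 lower claudin peaks was 8 with the 5 Mb window median subtracted, where 3.95% of all tested peaks were lower. It was 6 with the 20 nearest peaks of other genes subtracted, against 3.82% of all tested peaks. It was 5 with the trend over mean count and the window median both removed, against 2.89%. Where fewer peaks are tested it was lower by construction, 7 of 9 at mean counts from 50 upward, where 26.1% of all such peaks were lower, and 9 of 20 at widths up to 5 kb, where 5% of all were. Without Cldn3 and Cldn4, a setting chosen after seeing the data, it was 7 of 18, against 7.34% of all tested peaks. With the trend alone removed the count was 14, where 4.71% of all tested peaks were lower. Without a filter on low counts it was 15, where 2.86% of all were. It was 14 with the threshold on the adjusted p set to 0.01, against 4.66% of all tested peaks. When calls under 2-fold were left out it was 13, against 3.45%. The 6 lower promoters became 3 with the trend and the window median removed. They became 2 with peaks up to 5 kb wide, since those of Cldn2, Cldn3, Cldn4 and Cldn7 are wider. The share of all genes was not computed for these promoter counts, so they have no background. The causes of the regional and trend differences were not tested. No setting gave a higher peak at the 10 genes, and no promoter call of theirs changed its sign. No paired analysis was possible because the columns of single libraries could not be tied to sample labels, and leaving out each replicate was not run for the same reason. With mean counts under about 15, changes at Cldn1 and at the outer peaks of Cldn8 and Cldn2 are hard to detect.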
